A study of Mus musculus with 24 samples.

Results

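Zscan4c, Zscan4d, Zscan4f, Tcstv1, Tcstv3, Zfp352, Khdc1a, Khdc1c and Spic were followed across substrates and times after inhibitor removal in mouse embryonic stem cells (mESCs). These 9 genes are known from the oocyte and the cleavage-stage embryo, apart from Spic, which is better known from macrophages. They were picked by symbol from the gene tables, with earlier results of these data in view, and Khdc1a and Khdc1c were included because their counts fell after PD03 removal. The members were 9 of 35022 genes in the table of PD03 removal and 11 rows of 48709 in that of CHIRON removal, where the symbols Zscan4d and Zscan4f each stood on a pair of rows. The second row of each pair carried the identifier of the genes that GENCODE M21 names Zscan4-ps1 and Zscan4-ps2, both annotated there as protein-coding, and is called by that name here. The table of PD03 removal gives symbols only, so which of these identifiers its Zscan4d and Zscan4f rows hold cannot be told.

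All libraries came from E14 mESCs, a wild-type 129 line, plated on StemBond hydrogels (polyacrylamide-based gels with a stable coat of matrix protein, here fibronectin). Cells spent 12 h on soft or stiff gels in 2i+LIF, which holds mESCs in the naive state with 1 µM PD03 (an inhibitor of MEK), 3 µM CHIRON (an inhibitor of GSK3) and the cytokine LIF. In PD03 removal the cells then stayed in CHIRON+LIF, and in CHIRON removal in PD03+LIF, and RNA was taken at 0 h (still 2i+LIF), 2 h and 12 h. Each experiment had 6 groups of 2 libraries. The stiff 2 h group of CHIRON removal was used with 1 library, because the other held 171333 counts and was discarded by the study. The labels name no separate passages, animals or days for the libraries, so p-values measure the spread between these libraries, which may be technical. All cells were of 1 line.

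In the mouse, the embryonic genome is first transcribed strongly at the 2-cell stage, and a small changing fraction of mESCs switches on part of that programme for a time. Zscan4 genes encode SCAN-domain zinc finger proteins that mark this state and are known for their part in telomere lengthening. Tcstv1 and Tcstv3 are 2-cell-stage transcripts from neighbouring regions of 1 chromosome, Zfp352 encodes a zinc finger protein of the early embryo, and Khdc1 genes encode small KH-domain proteins of the oocyte and early embryo. Spic encodes an Ets-family transcription factor related to PU.1, needed for the macrophages of the spleen that recycle iron.

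The Zscan4 genes sit in 1 cluster on chromosome 7 whose 9 annotated genes span 819.9 kb (GRCm38, GENCODE M21). Zscan4c was at chr7:11005745-11010547 on the plus strand, Zscan4d at chr7:11161374-11166159 on the minus strand and Zscan4f at chr7:11397915-11402318 on the plus strand. Tcstv1 (chr13:119893388-119894785, minus strand) and Tcstv3 (chr13:120316878-120318178, plus strand) spanned 424.8 kb together, and Khdc1a (chr1:21349641-21352200, plus strand) and Khdc1c (chr1:21368331-21370845, plus strand) 21.2 kb. Zfp352 was at chr4:90218820-90225702 on the plus strand and Spic at chr10:88674772-88685015 on the minus strand.

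Near-identical copies limit what the row of 1 gene can say, and the sequences show how near they are. The 250 bases before the annotated start of Zscan4c (chr7:11005495-11005744, plus strand), Zscan4d (chr7:11166149-11166398, minus strand) and Zscan4f (chr7:11397665-11397914, plus strand) are given 5′ to 3′ from RefSeq (GRCm38.p6), with the bases that differ from Zscan4c in capitals.
Zscan4c: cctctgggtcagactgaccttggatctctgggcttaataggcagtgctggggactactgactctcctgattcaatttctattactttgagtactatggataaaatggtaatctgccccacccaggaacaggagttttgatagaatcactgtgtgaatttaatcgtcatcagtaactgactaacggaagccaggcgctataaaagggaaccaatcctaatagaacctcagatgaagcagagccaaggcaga
Zscan4d: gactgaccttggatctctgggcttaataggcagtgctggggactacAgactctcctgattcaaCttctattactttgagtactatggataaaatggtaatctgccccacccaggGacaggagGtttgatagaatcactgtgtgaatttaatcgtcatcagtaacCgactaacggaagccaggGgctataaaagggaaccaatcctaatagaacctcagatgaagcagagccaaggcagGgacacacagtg
Zscan4f: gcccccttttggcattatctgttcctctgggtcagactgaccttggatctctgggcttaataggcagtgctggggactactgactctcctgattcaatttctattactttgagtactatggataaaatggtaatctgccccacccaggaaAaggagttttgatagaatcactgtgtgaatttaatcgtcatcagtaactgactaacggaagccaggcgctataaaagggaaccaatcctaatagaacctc
Zscan4d differed from Zscan4c at 7 of 239 aligned bases (97.07% identity) and Zscan4f at 1 of 227 (99.56%). RefSeq start windows were matched for 5 of the 9 members, namely these and Zfp352 and Spic. The Spic window (chr10:88683024-88683273, minus strand) lies inside the span that GENCODE M21 gives for Spic, not before it. The letters TATAAA, searched on both strands, occurred in each of the Zscan4c, Zscan4d and Zscan4f windows and in neither that of Zfp352 nor that of Spic, against 12.37% of the 32851 promoter windows of that length. CTTTGAT, the core of TCF/LEF sites, and TTCNNNGAA, the STAT core, were found in none of the 5 windows, against 3.205% and 7.02% of all windows.

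The coding sequences of Khdc1a and Khdc1c, each 501 bases, differed at 1 base, T416C counted from the A of the start codon (Khdc1a first), for an identity of 99.8%. The 61 exonic coding bases around it (Khdc1a chr1:21350978-21351038 and Khdc1c chr1:21369612-21369672, GRCm38, plus strand) are shown because a coding read that does not cover this base matches both genes, with the differing base in capitals.
Khdc1a: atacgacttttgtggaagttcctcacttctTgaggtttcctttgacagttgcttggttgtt
Khdc1c: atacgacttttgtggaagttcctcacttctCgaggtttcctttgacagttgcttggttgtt
Tcstv1 and Tcstv3 were less alike, with 94.31% identity over 510 aligned coding bases, but their first 120 coding bases (chr13:119893975-119894094, minus strand, and chr13:120317567-120317686, plus strand, GRCm38, both within 1 exon) differed only at the base in capitals.
Tcstv1: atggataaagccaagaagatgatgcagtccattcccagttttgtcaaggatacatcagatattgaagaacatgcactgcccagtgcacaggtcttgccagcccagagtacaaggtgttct
Tcstv3: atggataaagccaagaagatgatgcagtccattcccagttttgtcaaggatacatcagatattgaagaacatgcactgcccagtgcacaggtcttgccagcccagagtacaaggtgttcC
Of all 50-base windows of each gene's transcripts, 85.54% in Zscan4c, 86.82% in Zscan4f and 49.57% in Zscan4d also occurred in transcripts of other genes. The shares were 43.5% for Khdc1a, 43.12% for Khdc1c, 31.37% for Tcstv3, 14.96% for Tcstv1, 7.095% for Zfp352 and 4.169% for Spic. How the study's counting treated reads with several matches is not given in the sources used here, so splits within the Zscan4, Tcstv and Khdc1 families are uncertain, while Zfp352 and Spic were nearly unique.

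Library totals were 16222196 to 26442153 counts in PD03 removal and 19393787 to 31111260 in the 11 CHIRON removal libraries. Levels are given as CPM, the counts of a gene per 1000000 scaled protein-coding counts of its library, except where counts are named. Markers of mESCs were high in every library (6 of 6 genes detected, summed level 3740 to 4653 CPM), and at 12 h their sum was 3862 to 4027 CPM after PD03 removal against 4303 to 4488 CPM at 0 h. The trophoblast list summed to 20.0 to 23.8 CPM at 0 h and to 35.1 to 41.9 CPM at 12 h of PD03 removal (6 genes, Elf5 and Hand1 at no more than 3 counts in any library of that experiment), and the fibroblast list stayed between 1.65 and 3.17 CPM there (6 genes). In CHIRON removal the trophoblast list summed to 97.9 to 128 CPM and the fibroblast list to 3.90 to 6.78 CPM. Most of that trophoblast sum came from Tfap2a, at 72.7 to 104 CPM, against 1.58 to 2.71 CPM in PD03 removal. The other trophoblast genes had fewer counts per library in CHIRON removal. They were Gata3 (126 to 502), Eomes (135 to 268), Cdx2 (0 to 133), Elf5 (3 to 20) and Hand1 (3 to 9). Gata3 was also higher there, at 6.07 to 24.4 CPM against 0.0825 to 0.505 CPM in PD03 removal. Cdx2 was lower (0 to 6.67 against 8.58 to 20.7 CPM), and Eomes, Elf5 and Hand1 overlapped. A primitive endoderm list of 7 genes summed to 12.0 to 17.6 CPM in CHIRON removal and 3.35 to 5.91 CPM in PD03 removal. The part of these markers in the results for the members was not tested.

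Per kilobase of transcript, the 9 members stood in the same broad order at 0 h in both experiments, with Zscan4 genes at the top and Khdc1 genes at the bottom. In PD03 removal the 4 libraries at 0 h gave 21.2 to 24.7 CPM per kb for Zscan4f, 19.1 to 22.1 for Zscan4c and 15.1 to 17.3 for Zscan4d. Zscan4f and Zscan4c overlapped, and Zscan4d lay below both. Tcstv3 followed at 3.25 to 4.71 CPM per kb, Spic at 3.15 to 4.02, Tcstv1 at 1.72 to 2.83 and Zfp352 at 1.5 to 2.08, where Tcstv3 overlapped Spic and Tcstv1 overlapped Zfp352. Khdc1c at 0.456 to 0.834 and Khdc1a at 0.520 to 0.642 CPM per kb overlapped and were lowest. In CHIRON removal Zscan4f at 24.2 to 28.2 CPM per kb, Zscan4c at 17.2 to 21.2 and Zscan4d at 12.3 to 14.5 did not overlap one another. Spic came next there at 4.64 to 6.09 CPM per kb, followed by Zfp352 at 1.15 to 1.46, Tcstv3 at 1.01 to 1.46 and Tcstv1 at 0.777 to 1.16, of which neighbours overlapped. Khdc1c at 0.0506 to 0.418 and Khdc1a at 0.0547 to 0.124 CPM per kb were again lowest. Khdc1a had 18 to 26 counts per library at 0 h of PD03 removal and 2 to 5 at 0 h of CHIRON removal, both in 2i+LIF on the same gels by their labels. The experiments were counted into separate tables, so culture and counting cannot be told apart in such differences.

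**Figure D1:**
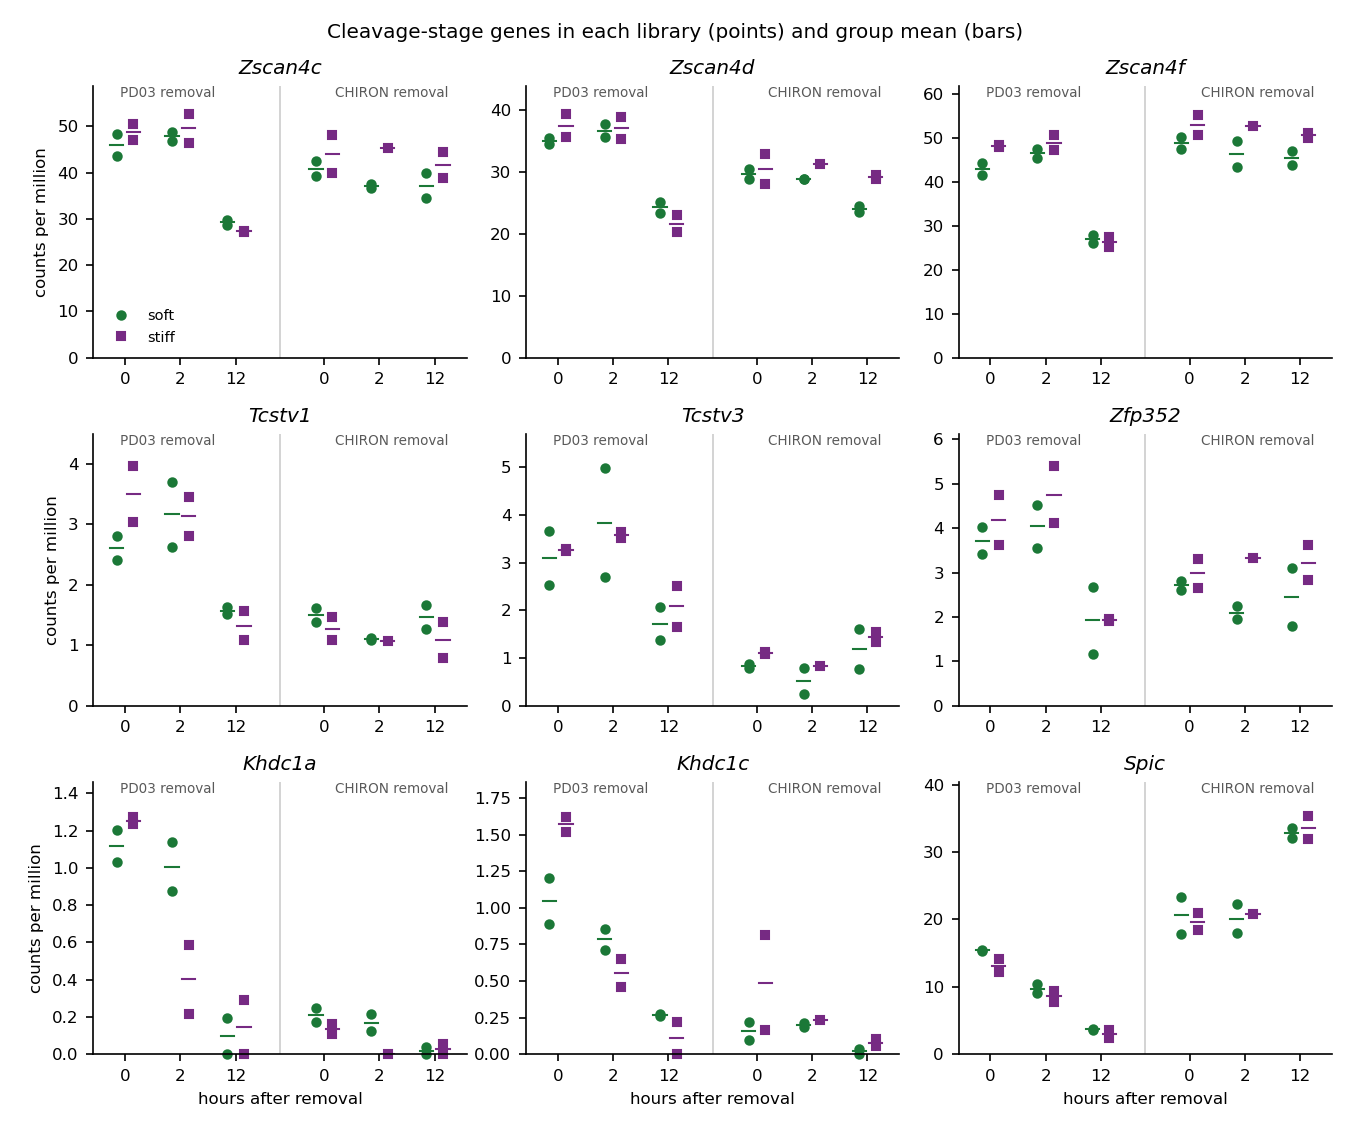
Level of each of the 9 genes in every library, in CPM on a linear axis from 0, against hours after removal, with PD03 removal to the left of the grey line and CHIRON removal to the right. Points are libraries (green circles soft, purple squares stiff) and bars are group means; Spic goes from between 12.11 and 15.5 CPM at 0 h to between 2.39 and 3.79 CPM at 12 h of PD03 removal, and lies at 31.9 to 35.3 CPM, above its other libraries, at 12 h of CHIRON removal.

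The first question was how the members changed once PD03 was withdrawn, with MEK signalling no longer inhibited. At 12 h Zscan4c, Zscan4d, Zscan4f, Zfp352 and Spic fell on both substrates, Tcstv1 passed the test on stiff gels and Tcstv3 on soft gels. At 2 h Spic alone among the 7 tested members had fallen. On each substrate 6 of the 7 were called lower at 12 h (edgeR quasi-likelihood test, adjusted p under 0.05). Of all 13394 genes tested, 14.9% were called lower on soft gels and 19.7% on stiff gels. DESeq2 called 5 of the 7 on soft and 6 on stiff gels. The median log2 fold change of the 7 was -0.73 on soft and -0.87 on stiff gels, while the median over all genes was 0.0028 and 0.00075. Zscan4c, Zscan4d and Zscan4f are near-identical copies, so these counts and medians do not rest on 7 independent readings. Khdc1a and Khdc1c had been chosen for this fall and are described without a test.

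Zscan4c stood at 48.4 and 43.5 CPM in the soft 0 h libraries, 48.7 and 46.9 at 2 h, then 29.8 and 28.7 at 12 h. On stiff gels its levels were 50.4 and 47.1, then 46.5 and 52.6, then 27.3 and 27.4 CPM. The 12 h libraries were thus the low ones on both gels, with no overlap, and 2 h overlapped 0 h. The log2 fold change at 12 h was -0.65 ± 0.08 (SE) on soft (adjusted p = 4.5e-07) and -0.83 ± 0.08 on stiff gels (adjusted p = 4.8e-09), which left 63.6% and 56.1% of the level at 0 h.

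Zscan4f was at 44.3 and 41.5 CPM at 0 h, 45.4 and 47.5 at 2 h, then 28.0 and 26.1 at 12 h on soft gels. The stiff libraries of Zscan4f had 48.0 and 48.4, 50.6 and 47.1, and 25.2 and 27.5 CPM. Its 12 h change was -0.67 ± 0.08 on soft and -0.87 ± 0.08 on stiff gels (adjusted p = 2.1e-07 and 9.3e-10). Zscan4d, the least abundant of the 3, had 34.4 and 35.4, 37.6 and 35.5, and 25.2 and 23.4 CPM on soft gels. On stiff gels Zscan4d stood at 35.6 and 39.2, 35.2 and 38.8, and 20.2 and 23.0 CPM. Zscan4d fell by 0.52 ± 0.09 on the log2 scale on soft gels and by 0.80 ± 0.09 on stiff gels (adjusted p = 4.9e-05 and 6.0e-08). In all 3 genes, which share much of their sequence, the 12 h libraries lay below every 0 h and 2 h library. The share of all genes whose libraries separated in this way was not computed, here or for the genes below.

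At 2 h none of the 3 had moved beyond narrow limits. The log2 fold change of Zscan4c was 0.06 on soft gels (95% interval -0.10 to 0.22) and 0.02 on stiff gels (-0.13 to 0.18), and that of Zscan4f was 0.11 (-0.04 to 0.27) and 0.02 (-0.13 to 0.17). Because these were bulk libraries, fewer cells in a Zscan4-positive state and less RNA in each such cell cannot be told apart.

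The sum over the family rows does not depend on how the counted reads were split among those rows. It does depend on how reads with several matches were treated, and PD03 removal has no rows named Zscan4-ps1, Zscan4-ps2 or Zscan4-ps3. Summed in this way, Zscan4 stood at 203 and 191, 205 and 208, and 134 and 127 CPM at 0 h, 2 h and 12 h on soft gels. On stiff gels the Zscan4 sum was 216 and 211, 209 and 219, and 119 and 122 CPM. Within the family the split among rows hardly moved. Zscan4c took 22.2 to 24.0% of the family's counts in the 12 libraries, Zscan4f 20.6 to 24.2%, Zscan4d 16.5 to 18.8%, Zscan4a 15.1 to 18.1%, Zscan4e 10.4 to 12.7% and Zscan4b 8.27 to 10.3%. Zscan4b changed by -0.71 ± 0.12 and -0.73 ± 0.12 at 12 h on soft and stiff gels, and Zscan4e by -0.54 ± 0.10 and -0.67 ± 0.10 (adjusted p = 5.3e-05, 2.5e-05, 0.00017 and 8.6e-06). Zscan4b and Zscan4e were 99.74% identical over 1518 aligned coding bases, so these are not independent readings.

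**Figure D2:**
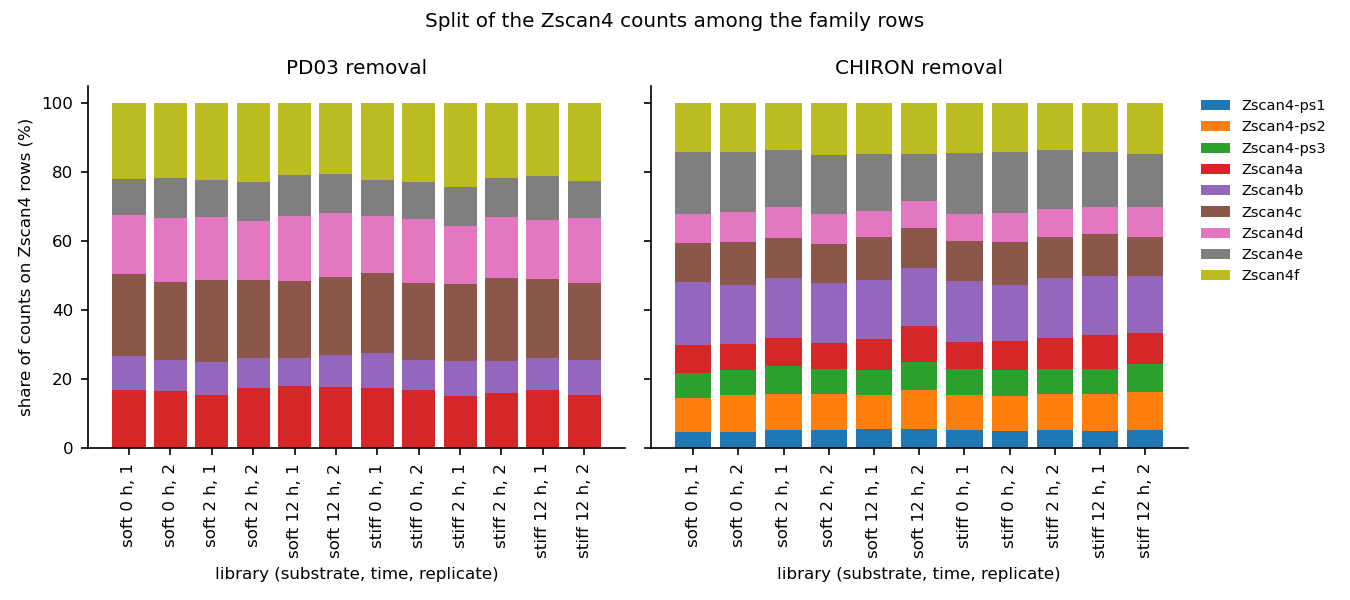
Share of the counts on all Zscan4 rows (percent, vertical axis) taken by each row in every library, with 6 rows in the table of PD03 removal and 9 in that of CHIRON removal. Zscan4c takes 22.2 to 24.0% in the first table and 11.1 to 12.6% in the second. In the second Zscan4b and Zscan4e take more, and rows for Zscan4-ps1, Zscan4-ps2 and Zscan4-ps3 are present. Within the first table the bars of different times look alike. In the second the share of Zscan4e runs from 13.8 to 17.8% and that of Zscan4a from 7.54 to 10.4% across libraries.

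Tcstv1 and Tcstv3 were measured on few counts. Tcstv1 had 49 and 38 counts at 0 h, 52 and 33 at 2 h, then 22 and 25 at 12 h on soft gels, and 61 and 62, 53 and 39, and 15 and 19 on stiff gels. Its 12 h libraries were the low ones on both gels. The change of Tcstv1 was -1.40 ± 0.30 on stiff gels (adjusted p = 0.00056) and -0.73 ± 0.30 on soft gels, where it missed the threshold (adjusted p = 0.065). Tcstv3 had 64 and 40, 70 and 34, and 30 and 21 counts on soft gels and 50 and 67, 56 and 49, and 35 and 20 on stiff gels. Again all 12 h libraries lay below those of 0 h on the same gel in CPM. Tcstv3 passed the test with -0.87 ± 0.31 on soft gels (adjusted p = 0.036) and missed it with -0.63 ± 0.30 on stiff gels (adjusted p = 0.10). With Tcstv1 and Tcstv3 summed, the change was -0.80 on soft and -0.97 on stiff gels (adjusted p = 0.0079 and 0.00099). The call of Tcstv3 on soft gels was lost with DESeq2 (adjusted p = 0.0998), without soft 0 h replicate 1 (-0.57, adjusted p = 0.32) and without soft 12 h replicate 2 (-0.59, adjusted p = 0.28).

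Zfp352 had 70 and 54 counts at 0 h, 50 and 57 at 2 h, then 17 and 41 at 12 h on soft gels, and 73 and 74, 63 and 75, and 27 and 23 on stiff gels. The libraries of 12 h were the lowest, and on soft gels they differed from each other by more than those of any other time. Zfp352 fell by 0.94 ± 0.29 on the log2 scale on soft gels and by 1.10 ± 0.29 on stiff gels (adjusted p = 0.015 and 0.0037). On soft gels the value moved to -0.48 without 12 h replicate 1 (adjusted p = 0.29) and to -1.66 without 12 h replicate 2, and the call was also lost without 0 h replicate 1 (-0.82, adjusted p = 0.105).

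Khdc1a and Khdc1c, the members chosen by their fall, were near the limit of detection at 12 h. Khdc1a had 18 and 19 counts at 0 h, 16 and 11 at 2 h, then 0 and 3 at 12 h on soft gels, and 19 and 26, 9 and 3, and 4 and 0 on stiff gels. Khdc1c had 21 and 14, 12 and 9, and 4 and 4 counts on soft gels and 25 and 31, 7 and 9, and 3 and 0 on stiff gels. The 12 h libraries of both genes lay below every 0 h and 2 h library on soft gels. On stiff gels a 2 h library of Khdc1a (3 counts) was already at the level of 12 h. Over both substrates Khdc1a had 7 counts at 12 h against 82 at 0 h, a depth-scaled ratio of 0.105, and Khdc1c had 11 against 91, a ratio of 0.149. At 2 h the ratios to 0 h were 0.588 for Khdc1a and 0.502 for Khdc1c. The fitted log2 fold changes at 12 h were -3.37 on soft and -2.97 on stiff gels for Khdc1a and -1.94 and -3.67 for Khdc1c, and with so few counts they depend on the prior count of the fit. With Khdc1b added, the family had 42 and 37, 29 and 21, and 5 and 7 counts on soft gels and 53 and 59, 17 and 13, and 8 and 0 on stiff gels. The family sum does not depend on how the counted reads were split between Khdc1a and Khdc1c, but it does depend on how reads with several matches were treated. It is made mostly of these chosen genes, so its order of times is no separate reading.

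Spic fell furthest of the 7 tested members and was the one already lower at 2 h. On soft gels Spic had 15.3 and 15.5 CPM at 0 h, 9.05 and 10.4 at 2 h, then 3.64 and 3.79 at 12 h. On stiff gels it had 14.2 and 12.11, 9.40 and 7.77, and 3.61 and 2.39 CPM. The 3 times did not overlap on either gel. At 2 h 63.2% and 65.4% of the 0 h level remained on soft and stiff gels, with log2 fold changes of -0.66 ± 0.15 and -0.60 ± 0.15 (adjusted p = 0.0086 and 0.018). Lower calls made up 0.65% of all genes at that time on soft gels and 0.881% on stiff gels. At 12 h 24.1% and 22.8% remained, with changes of -2.05 ± 0.17 and -2.10 ± 0.18 (adjusted p = 2.1e-10 and 2.7e-10). The 2 h calls were near the threshold and were lost with DESeq2 (adjusted p = 0.051 on soft and 0.10 on stiff gels), while the 12 h calls were kept. They were also lost on soft gels without 0 h replicate 1, 0 h replicate 2 or 2 h replicate 1 (adjusted p = 0.066, 0.067 and 0.19), and on stiff gels without 0 h replicate 1 or 2 h replicate 2 (adjusted p = 0.22 and 0.24) and with only the groups compared in the fit (adjusted p = 0.052).

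Markers of macrophages, in which Spic is well known, did not move together at 12 h. Their 7-gene sum was 14.6 to 16.0 CPM at 0 h and 18.5 to 21.1 CPM at 12 h of PD03 removal, carried mostly by Cd68, a lysosomal protein that many cells make, while the defining genes Adgre1 and Ptprc were at 0 or 1 count in every library. Spi1, which encodes PU.1, was called lower on stiff gels at 12 h (-1.88 ± 0.51, adjusted p = 0.0043) and had -0.78 ± 0.44 on soft gels (adjusted p = 0.19), and it is 1 of the 7. The part of these markers in the fall of Spic was not tested.

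**Figure D3:**
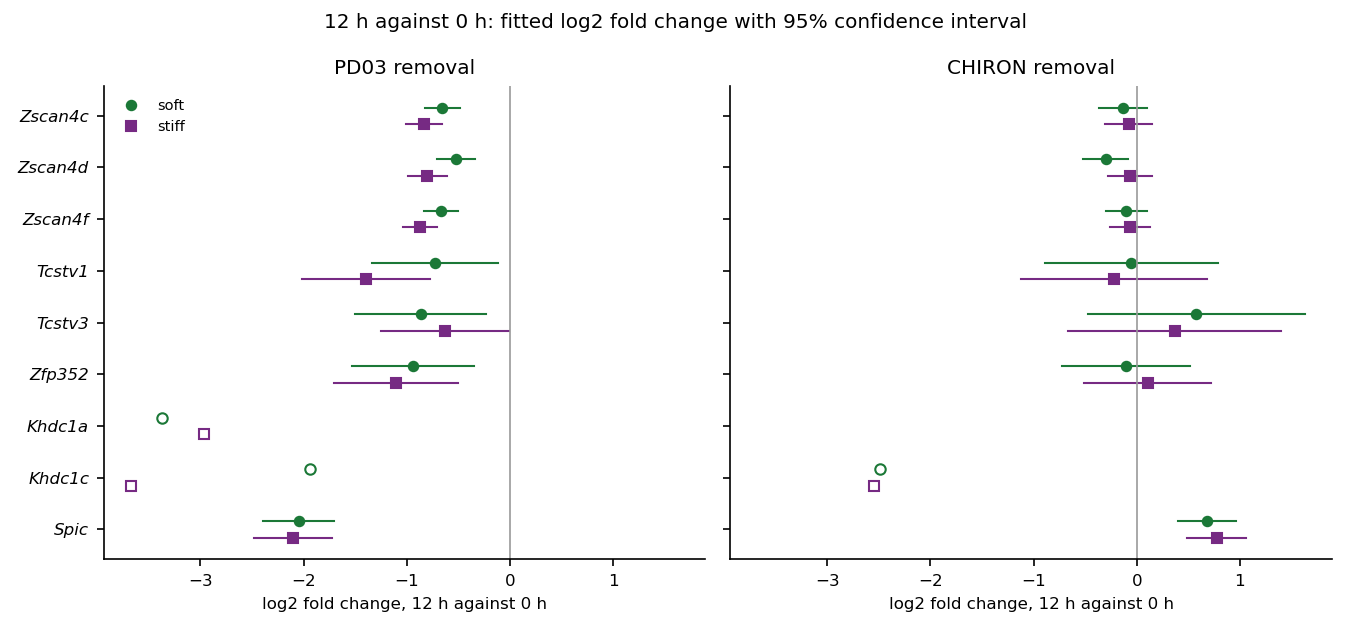
Log2 fold change at 12 h against 0 h for each gene (rows) in PD03 removal (left) and CHIRON removal (right), green circles for soft and purple squares for stiff gels, with 95% confidence intervals. Open symbols carry no interval and are the Khdc1 values that chose those genes (left) and Khdc1c, which passed the count filter through 1 library (right), and Khdc1a has no point on the right because it was below the count filter; Spic is at -2.05 and -2.10 on the left and at 0.68 and 0.77 on the right.

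Other genes of the cleavage-stage programme were taken from a list of 37, and none of the 29 tested was called higher after PD03 removal. At 12 h 18 were called lower on soft gels and 24 on stiff gels, against 14.9% and 19.7% of all genes, with a median log2 fold change of -0.71 and -0.87. At 2 h none was called by edgeR in either direction, against 1.99% and 2.73% of all genes. The list holds other Zscan4 rows and 5 Usp17l rows that share sequence, so its genes are not independent. The largest changes on soft gels were those of Patl2, an RNA-binding protein of the oocyte (-1.30 ± 0.16), B020004J07Rik (-1.12 ± 0.41), AF067061 (-1.02 ± 0.26) and the deubiquitinase gene Usp17le (-1.0 ± 0.14). On stiff gels they were those of Tdpoz5 (-1.88 ± 0.72, adjusted p = 0.040), Usp17la (-1.34 ± 0.18), Patl2 (-1.31 ± 0.18) and Usp17lb (-1.20 ± 0.14). Duxf3, a row of the Dux repeat whose factor activates the 2-cell programme, was at 0.260 to 1.08 CPM at 0 h and 0.344 to 0.413 CPM at 12 h, which overlapped.

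Regulators of this programme had smaller changes, in both directions. Of 4 activators, 3 were called higher at 12 h on both gels, against 14.5% of all genes on soft and 18.6% on stiff gels. They were Dppa4 (0.41 ± 0.06 on soft and 0.50 ± 0.06 on stiff gels), Dppa2 (0.15 ± 0.05 and 0.27 ± 0.05), whose proteins act together upstream of Dux, and Tbx3 (0.14 ± 0.05 and 0.13 ± 0.05). Of 14 repressors, 3 were called higher and 4 lower on soft gels, and 4 higher and 5 lower on stiff gels, where 29.3% and 38.3% of all genes were called in either direction. Among them Ncl, which encodes nucleolin, changed by 0.39 ± 0.06 and 0.50 ± 0.06, and Ehmt2, a histone H3 lysine methyltransferase, by 0.32 ± 0.05 and 0.39 ± 0.05. Zfp42, a naive-state factor, changed by -0.19 ± 0.04 and -0.23 ± 0.04.

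KH-domain and oocyte genes other than the Khdc1 pair were called in both directions. Of 13 listed genes 8 were tested, with 2 called higher and 2 lower on soft gels and 2 higher and 3 lower on stiff gels at 12 h, where 14.5% of all genes were called higher and 14.9% lower on soft gels and 18.6% and 19.7% on stiff gels. Counts this small over 8 genes do not set the list apart from all genes. Tle6, of the subcortical maternal complex, rose by 0.69 ± 0.11 and 0.68 ± 0.12, and Zp3, a zona pellucida protein, by 0.59 ± 0.11 and 0.54 ± 0.10. Dppa5a fell by 0.28 ± 0.06 and 0.38 ± 0.06 on the log2 scale and Ooep by 0.20 ± 0.06 and 0.34 ± 0.06, both KH-domain genes.

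The same members were then examined after withdrawal of CHIRON, which ends the inhibition of GSK3 that stabilises β-catenin. Spic rose at 12 h on both gels, the opposite direction to PD03 removal, and no other member row was called. On each gel 1 of 10 tested rows was called at 12 h, against 17.8% of the 14615 genes tested on soft and 16.8% on stiff gels (9.18% and 8.46% called higher), and none at 2 h, against 0.226% and 0.103%. Among these rows Khdc1c had passed the count filter through 1 high library. At 2 h no member row had an unadjusted p under 0.05, and DESeq2 called 0.

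Spic had 23.4 and 17.8 CPM at 0 h, 17.9 and 22.2 at 2 h, then 33.6 and 32.1 at 12 h on soft gels. On stiff gels its levels were 20.9 and 18.4, 20.8 in the lone 2 h library, and 31.9 and 35.3 CPM at 12 h. All 12 h libraries were above all others, and 2 h overlapped 0 h. The log2 fold change at 12 h was 0.68 ± 0.13 on soft and 0.77 ± 0.14 on stiff gels (adjusted p = 0.0015 and 0.00053). It was 0.49 on soft gels without 0 h replicate 2 but missed the threshold (adjusted p = 0.051), and with the discarded library added back adjusted p was 0.126 on soft and 0.071 on stiff gels. Macrophage markers summed to 19.3 to 22.6 CPM at 0 h and 22.4 to 26.4 CPM at 12 h, with Adgre1 at 0 to 4 and Ptprc at 0 to 5 counts per library, and their part in the rise of Spic was not tested.

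No Zscan4 member row was called after CHIRON removal. Zscan4c had 39.2 and 42.5, 36.7 and 37.5, and 39.8 and 34.4 CPM on soft gels and 39.9 and 48.1, then 45.3, then 44.4 and 38.9 on stiff gels. Zscan4f had 50.05 and 47.4, 43.4 and 49.2, and 47.1 and 43.7 CPM on soft gels and 50.6 and 55.2, then 52.7, then 51.1 and 49.9 on stiff gels. The 12 h intervals were -0.36 to 0.10 and -0.31 to 0.15 for Zscan4c on soft and stiff gels, and -0.30 to 0.10 and -0.26 to 0.13 for Zscan4f, so for these 2 genes no interval reached the value found after PD03 removal on the same gel. Zscan4d had the lowest value among them, with 30.4 and 28.8, 28.7 and 28.8, and 24.5 and 23.4 CPM on soft gels. Its soft 12 h libraries lay below the others, with a change of -0.30 ± 0.10 (95% interval -0.52 to -0.08) that missed the threshold (adjusted p = 0.051) and passed it without stiff 0 h replicate 1 (adjusted p = 0.038). That interval extends to about the -0.52 found for Zscan4d on soft gels after PD03 removal. On stiff gels Zscan4d had 28.0 and 32.9, then 31.2, then 28.8 and 29.4 CPM, which overlapped, with a change of -0.06 ± 0.10 (-0.28 to 0.15). The rows of Zscan4-ps1 and Zscan4-ps2 had log2 fold changes of 0.08 ± 0.11 and -0.12 ± 0.09 on soft gels and of -0.01 ± 0.11 and -0.002 ± 0.09 on stiff gels.

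Tcstv1, Tcstv3 and Zfp352 gave wide intervals after CHIRON removal. Tcstv1 was at 1.62 and 1.39, 1.10 and 1.13, and 1.27 and 1.66 CPM on soft gels and at 1.47 and 1.09, then 1.07, then 1.39 and 0.799 on stiff gels. At 12 h Tcstv1 overlapped 0 h on both gels, and at 2 h it lay below 0 h on each. Tcstv3 had 0.787 and 0.867, 0.244 and 0.804, and 1.61 and 0.768 CPM on soft gels, which overlapped. On stiff gels Tcstv3 had 1.14 and 1.09, then 0.834, then 1.54 and 1.33 CPM, which did not overlap. Zfp352 had 2.61 and 2.82, 1.95 and 2.25, and 3.11 and 1.79 CPM on soft gels, lower at 2 h than at 0 h, and 2.66 and 3.31, then 3.34, then 2.82 and 3.62 on stiff gels. The edgeR test called none of these differences. The 12 h intervals were -0.89 to 0.78 and -1.12 to 0.68 for Tcstv1, -0.48 to 1.63 and -0.67 to 1.40 for Tcstv3 and -0.72 to 0.52 and -0.51 to 0.72 for Zfp352. For Tcstv1 the value found after PD03 removal, -0.73 on soft and -1.40 on stiff gels, lies inside the soft interval and outside the stiff one.

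The Khdc1 genes were few from the start in CHIRON removal. Khdc1a had 5 and 4, 2 and 4, and 1 and 0 counts on soft gels and 3 and 2, then 0, then 0 and 1 on stiff gels, and was below the filter. Khdc1c had 2 and 5, 3 and 4, and 1 and 0 counts on soft gels and 15 and 3, then 5, then 2 and 1 on stiff gels. Its high library was 1 of the stiff 0 h pair, which alone held 15 of the 25 counts at 0 h. Over both substrates Khdc1a had 2 counts at 12 h against 14 at 0 h, a depth-scaled ratio of 0.142. Khdc1c had 4 against 25, a ratio of 0.159. No interval is given, because these pooled counts do not show the spread between libraries. Khdc1c passed the count filter through that 0 h library alone, so no test of its change is given, and its fitted values were -2.49 on soft and -2.55 on stiff gels. The summed Khdc1 counts were 7 and 9, 5 and 8, and 3 and 2 on soft gels and 19 and 5, then 5, then 2 and 2 on stiff gels.

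Of 31 tested genes on the cleavage-stage list, 6 were called lower on soft gels and 2 on stiff gels at 12 h of CHIRON removal. Of all genes 8.63% and 8.33% were called lower, and none of the list was called higher. The list holds other Zscan4 rows, among them Zscan4-ps1 and Zscan4-ps2, and Usp17l rows that share sequence, so its genes are not independent. Patl2 changed by -0.76 ± 0.15 and -1.35 ± 0.16, the same direction as after PD03 removal. The others named by size were Usp17le (-0.71 ± 0.12), Sp110 (-0.66 ± 0.19) and Gm12794 (-0.54 ± 0.18) on soft gels and Usp17la (-0.46) on stiff gels. Zscan4e was among the 6 on soft gels, at -0.36 ± 0.11 (adjusted p = 0.023). Of the activators Dppa2 was called higher on both gels (0.36 ± 0.09 on soft gels). The 14 repressors gave 2 higher and 1 lower call on soft gels, led by Chaf1b (-0.47 ± 0.08), Ehmt2 (0.35 ± 0.09) and Trim28 (0.27 ± 0.08), and 3 higher and 2 lower on stiff gels. Among the KH-domain and oocyte genes, 2 of 9 tested were called higher on soft gels, Zp3 (0.61 ± 0.12) and Dppa5a (0.35 ± 0.08), 3 on stiff gels, and none lower, against 9.18% and 8.46% of all genes called higher.

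The division of Zscan4 counts differed between the tables more than between any times. The count of Zscan4e per count of Zscan4c was 0.446 to 0.553 in the 12 libraries of PD03 removal and 1.21 to 1.61 in the 11 of CHIRON removal, and that of Zscan4b was 0.372 to 0.462 and 1.30 to 1.64. Zscan4d per count of Zscan4c was 0.706 to 0.845 and 0.614 to 0.783, which overlapped. The table of CHIRON removal holds rows for Zscan4-ps1, Zscan4-ps2 and Zscan4-ps3 that the other does not name, so Zscan4 levels were compared within each table only.

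Stiffness was the third comparison. No member passed the threshold between soft and stiff gels at any time or in the mean of the 3 times, and none did so for the difference in response, in either experiment. In PD03 removal the mean-of-times comparison called 1.97% of all genes, the comparisons at 0 h, 2 h and 12 h 0.0299%, 0.134% and 0.769%, and the difference in response 0.00747% at 2 h and 0% at 12 h. In CHIRON removal all 6 of these comparisons called 0 genes with edgeR and 0 with DESeq2, although 1025 genes had an unadjusted p under 0.05 for the mean of the times.

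For the mean of the 3 times in PD03 removal the soft against stiff log2 fold change was -0.01 for Zscan4c (95% interval -0.11 to 0.09), 0.02 for Zscan4d (-0.09 to 0.12) and -0.07 for Zscan4f (-0.16 to 0.03). These intervals leave room for differences of no more than 0.16 on the log2 scale. They were wider for Tcstv1 (-0.04, -0.39 to 0.31), Tcstv3 (-0.08, -0.44 to 0.27) and Zfp352 (-0.12, -0.46 to 0.21), and widest for Khdc1a (0.18, -0.91 to 1.27) and Khdc1c (0.37, -0.42 to 1.16). Spic was 0.23 higher on soft gels, with an interval of 0.02 to 0.45, and missed the threshold (adjusted p = 0.31). Of the 9 members Spic alone had an unadjusted p under 0.05 there, as had 1764 of the 13394 genes tested. Khdc1a alone had such a p at 2 h (1.29, 0.05 to 2.53, adjusted p = 0.55). It had 16 and 11 counts on soft against 9 and 3 on stiff gels. At 0 h Zscan4f alone had one (-0.17, -0.32 to -0.02, adjusted p = 0.65). Over all genes 1150 had such a p at 2 h and 969 at 0 h.

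The response at 12 h of PD03 removal was not shown to differ with stiffness either. The change was 0.28 smaller on soft than on stiff gels for Zscan4d (interval 0.01 to 0.54, adjusted p = 0.73), 0.18 smaller for Zscan4c (-0.06 to 0.42) and 0.21 smaller for Zscan4f (-0.03 to 0.44). It was 0.67 smaller for Tcstv1 (-0.23 to 1.56) and 0.16 smaller for Zfp352 (-0.70 to 1.03), and differed by 0.06 for Spic (-0.49 to 0.60). For Tcstv3 the fall was larger on soft gels, with a difference of -0.24 (-1.14 to 0.66). The fitted differences of the Khdc1 genes, given without a test, were -0.40 for Khdc1a, also larger on soft gels, and 1.73 for Khdc1c. Zscan4d was the member with an unadjusted p under 0.05, of 9. Over all genes 895 had such a p, and edgeR and DESeq2 called 0.

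In CHIRON removal Zscan4 levels were on the lower side on soft gels. Of 10 member rows tested, 5 had an unadjusted p under 0.05 for the mean of the times, as had 1025 of 14615 genes. The 5 were Zscan4c, Zscan4d, Zscan4f, Zscan4-ps1 and Zscan4-ps2. The mean of the times gave -0.19 for Zscan4c (-0.33 to -0.04), -0.15 for Zscan4d (-0.28 to -0.01) and -0.15 for Zscan4f (-0.27 to -0.03), with adjusted p = 0.685, 0.70 and 0.69. These rows share much of their sequence, so they are not separate readings. The list of 31 cleavage-stage genes had a median of -0.16. It holds other Zscan4 rows, and Zscan4-ps1 and Zscan4-ps2 are counted both there and among the member rows, so this median is no separate reading either. Tcstv1 was at 0.23 (-0.32 to 0.78), Tcstv3 at -0.42 (-1.11 to 0.26), Zfp352 at -0.38 (-0.77 to 0.00) and Spic at -0.01 (-0.18 to 0.17). Khdc1c had a fitted value of -1.10, which rests on the stiff 0 h library of 15 counts.

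**Figure D4:**
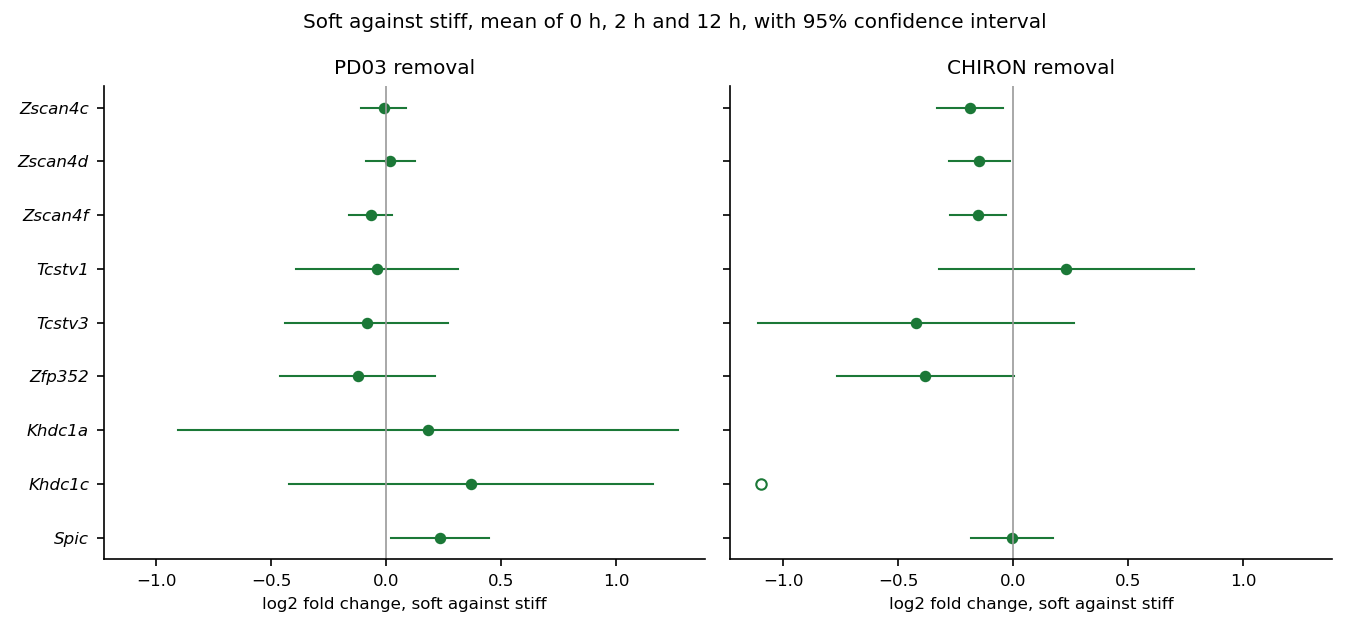
Soft against stiff log2 fold change as the mean of 0 h, 2 h and 12 h for each gene (rows), with 95% confidence intervals, in PD03 removal (left) and CHIRON removal (right). Points right of 0 are higher on soft gels, and Khdc1c on the right is an open symbol with no interval because it passed the count filter through 1 library; none passed the threshold, and the interval of Spic on the left runs from 0.02 to 0.45.

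Libraries of 1 time share treatment, so likeness to the members is given as a description. It was the lower of the correlations of log2 CPM over the 12 and the 11 libraries. The genes whose levels ran most like the members were ranked by it over 13145 genes. For the Zscan4 members summed they were Actg1 (cytoplasmic γ-actin, 0.944), Zscan4e (0.905), Emc2 (0.878), Tgfbr1 (a receptor for TGF-β, 0.868) and Tpm4 (a tropomyosin, 0.856). For Tcstv1 and Tcstv3 summed they were Eif3e (0.895), Arf2 (0.889), Kif5b (0.874), Impa1 (0.858) and Mesdc2 (0.855). Khdc1a came with Commd4 (0.862), P2rx4 (0.841), Bpnt1 (0.837), Tmem116 (0.833) and Ap3b2 (0.832), on counts of 0 to 5 in the second experiment.

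For Spic the closest gene was Bhmt, which encodes the betaine-homocysteine methyltransferase of methionine synthesis, with 0.945 as the lower of the correlations, followed by Jam2 (0.943), Ndrg1 (0.939), Pramef17 (0.931) and Tmc7 (0.929). In PD03 removal Bhmt had 65.6 and 68.2, 59.9 and 65.7, and 37.4 and 43.4 CPM on soft gels and 60.7 and 62.0, 56.1 and 57.1, and 32.2 and 30.6 on stiff gels. Its 12 h libraries were the low ones, by -0.73 ± 0.07 on soft and -0.96 ± 0.08 on stiff gels, and at 2 h it overlapped 0 h on soft gels and lay below it on stiff gels, while Spic at 2 h lay below 0 h on both. In CHIRON removal Bhmt was at 14.3 to 14.7 CPM at 0 h, 15.1 to 15.5 at 2 h and 24.3 to 26.4 at 12 h, so that like Spic it was highest at 12 h (0.80 ± 0.11 on soft gels). Because Bhmt was picked for this likeness, its changes are given without a test. Each correlation rests largely on the 12 h libraries standing apart from the rest.

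**Figure D5:**
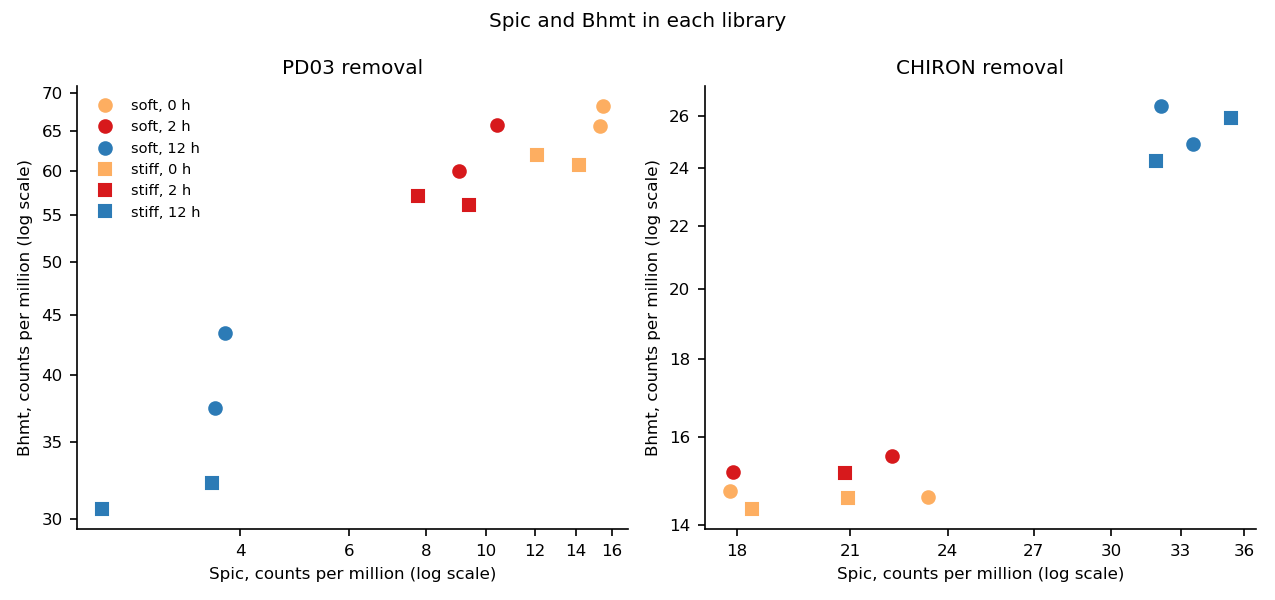
Spic (horizontal) against Bhmt (vertical) in CPM, both on log axes, with 1 point per library for PD03 removal (left, 12 libraries) and CHIRON removal (right, 11 libraries); colours are times and shapes are substrates. The 12 h libraries sit at the bottom left after PD03 removal (Spic 2.39 to 3.79 CPM) and at the top right after CHIRON removal (31.9 to 35.3 CPM).

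Of the methionine and betaine cycle list, which holds Bhmt, 10 of 13 genes were tested. After PD03 removal 2 were called higher and 4 lower on soft gels at 12 h, and 2 higher and 6 lower on stiff gels, against 14.5% and 14.9% of all genes on soft and 18.6% and 19.7% on stiff gels. Bhmt, through which the list was entered, is counted among the lower ones. The largest falls besides Bhmt were those of Bhmt2 (-0.67 ± 0.10 and -0.74 ± 0.10) and Dmgdh, which oxidises dimethylglycine (-0.40 ± 0.05 and -0.49 ± 0.05). At 12 h Bhmt was 0.36 ± 0.08 higher on soft than on stiff gels, given without a test. After CHIRON removal 2 genes of the list were called higher and 2 lower on soft gels, and 1 higher and 2 lower on stiff gels. Of all genes 9.18% were called higher and 8.63% lower on soft gels, and 8.46% and 8.33% on stiff gels. Bhmt is in the list here too and was picked by its likeness to Spic over these same libraries. The counts are therefore no test of the list. Bhmt2 and Dmgdh were not called on soft gels (0.33 ± 0.13 and -0.12 ± 0.09).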

How the data were processed

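RNA in 24 samples of E14 mESCs on soft or stiff StemBond hydrogels was sequenced after ribosomal depletion. The authors deposited raw read counts per gene, made per the submitters' processing notes with Trim Galore, TopHat2 2.1.0 and featureCounts 1.5.0 against mm10, and analysed with DESeq2. Strand and multi-mapping settings are not given in the sources used here. Totals were 16222196 to 31111260 counts in the 23 libraries used, whose number per group limits precision more than counting does, except for members with few counts.

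Protein-coding genes by GENCODE M21 were kept, 23 rows without a gene name and 12 columns of other samples were not used, and filterByExpr (minimum count 10, minimum total 15) left 13394 and 14615 genes. edgeR 4.0.16 (R 4.3.3) with TMM scaling and the quasi-likelihood test was fitted to 6 groups per experiment, with Benjamini-Hochberg adjustment over all genes and a threshold of 0.05. CPM was computed from TMM-scaled totals. In stiff 2 h of CHIRON removal the lone library was assumed to vary like the others. On simulated counts with 200 genes changed by 1 on the log2 scale, the soft 12 h comparison recovered 164 with 6 others called in PD03 removal (13236 genes) and 147 with 11 others in CHIRON removal (14224 genes). Libraries that share a replicate number were not treated as pairs, as their deviations from the group means correlated by -0.053 to 0.114 and by -0.109 to 0.071. Replicates differed by more than counting noise, with chi-square per degree of freedom of 2.18 to 3.13 and 6.23 to 18.5. Count ratios pool the libraries of a time and are given without an interval.

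The members and lists were chosen with earlier results of these data known. All members were named, with the 5 genes most like each family and up to 4 called genes of each list with the largest change in a comparison. Bhmt is shown by library as the gene most like Spic. Alternatives were DESeq2 1.42.0, edgeR with DESeq2 size factors, omission of the count filter, inclusion of all gene types, fits of only the groups compared, a replicate block, summed families, each library left out and the discarded library added back. Sequences were read from RefSeq windows (GRCm38.p6) and, by GENCODE M21 coordinates, from GRCm38, and aligned with Biopython 1.88. Proteins were not used here.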

Additional observations from a re-analysis of the deposited data

How the results depend on the processing

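Of 182 results for members, 16 passed the threshold, and over the alternatives these gave 304 values, of which 288 stayed past it, 16 did not and 0 changed sign. Results that did not pass gave 3089 values, of which 163 changed sign and 4 passed. For PD03 removal, the count of members called at 2 h went from 1 to 0 with DESeq2 on both gels and to 0 with only the groups compared on stiff gels, and lay between 0 and 1 with each library left out. The member concerned was Spic. Leaving out a library left its group with 1, assumed to vary like the other groups. For a comparison of a time with 0 h, most of these fits left out a library of a group outside the comparison. Such fits could move its value little, so the 304 and 3089 values are not separate checks. For CHIRON removal, the count at 12 h went from 1 to 0 on both gels with the discarded library added back. That also took the calls over all genes from 2603 to 457 on soft and from 2455 to 461 on stiff gels. Over the alternatives the log2 fold change of Spic ran from 0.49 to 0.91 on soft and from 0.69 to 0.87 on stiff gels. Without stiff 0 h replicate 2 the fitted value of Khdc1c on stiff gels was -3.27, with its high library as the whole 0 h group. That value is counted among those above but is no test of Khdc1c. The causes were not tested. The replicate block gave the same counts, 1 on each gel at 2 h and 6 on each gel at 12 h of PD03 removal, and 1 on each gel at 12 h of CHIRON removal, and changed no call of a member. Depth limited the Khdc1 genes most, with 0 to 4 counts per library at 12 h, and then the Tcstv genes and Zfp352.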
